A study of Mus musculus with 4 samples.

Results

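The G1 cyclins and the inhibitors of cyclin-dependent kinases (CDKs) were examined in 3T3-L1 preadipocytes on day 2 of adipogenic induction. The set was 10 genes that control the round of division after induction: the D-type cyclins Ccnd1, Ccnd2 and Ccnd3, the E-type cyclins Ccne1 and Ccne2, cyclin A2 (Ccna2) and the inhibitors Cdkn1a, Cdkn1b, Cdkn1c and Cdkn2c. Every non-control probe whose gene name on the array is one of these 10 was used. This gave 17 probes on 44 spots, of 41174 probes on 43379 spots and 27745 gene names in all. Ccnd2 and Cdkn1b had 3 probes each, Ccne1, Ccne2 and Cdkn2c had 2 each, and the other 5 genes had 1 each.

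Confluent 3T3-L1 cells rest in G1 and re-enter the cell cycle after hormonal induction, a phase called mitotic clonal expansion that comes before most adipocyte genes are expressed. D-type cyclins with CDK4 or CDK6, followed by cyclin E and cyclin A with CDK2, phosphorylate the retinoblastoma protein and its relatives, which releases E2F factors to transcribe genes of DNA synthesis. The Cip/Kip inhibitors p21, p27 and p57, encoded by Cdkn1a, Cdkn1b and Cdkn1c, bind cyclin-CDK complexes, whereas the INK4 inhibitor p18, encoded by Cdkn2c, binds CDK4 and CDK6. The amount of p27 is set largely by degradation of the protein, which an mRNA measurement does not show.

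3T3-L1 is an established mouse preadipocyte line of clonal origin. All 4 cultures received 10 µg/mL insulin, 1 µM dexamethasone and 0.5 µM IBMX, an inhibitor of phosphodiesterases, from day 0, and the medium of each held 0.1% DMSO. The control had DMSO alone, and the others had in addition bilberry extracts at 100 µg/mL, delphinidin at 100 nM or cyanidin at 100 nM. Bilberry is a fruit rich in anthocyanins, and delphinidin and cyanidin are anthocyanidins, the coloured cores of these pigments. Cyanine 3-labeled RNA of each culture was hybridized to 1 Agilent Whole Mouse Genome array, with 1 slide and 1 scan for all 4. No condition had a replicate, so no difference has a p-value or a check against the spread between cultures, and precision is limited by there being 1 array each.

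Levels are processed signals divided by the 75th percentile of their own array, which was 861 (DMSO), 576 (bilberry), 1009 (delphinidin) and 1016 (cyanidin), and differences are log2 ratios to the DMSO array. The 3 ratios share that array. The ± values are the error of the scanner software, which was 10.0% of the signal for a median member spot. The lowest was also 10.0%, so for most spots this is the lower limit of that error and not a measured spread. This error comes to 0.20 on a log2 ratio for every member probe but the dimmest ones. The software's test placed 15 of the 17 well above background on every array, and no member spot was saturated. The scaling decides the sign of many bilberry values. Scaling to the spike-in control RNAs lowered every log2 ratio of bilberry by 1.54 against the 75th percentile, and it raised those of delphinidin by 0.26 and those of cyanidin by 0.23. Values are therefore also given relative to the median of the 14372 genes well above background on all 4 arrays, which was 0.16 (bilberry), -0.03 (delphinidin) and -0.01 (cyanidin) and moves with such a constant. After spike-in scaling it was -1.38, 0.22 and 0.22. The share of all genes above DMSO or past 2-fold was not counted under that scaling. Counts given after it therefore describe the listed genes only. Fewer cells of a type and less RNA per cell cannot be told apart in such bulk RNA.

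The marker RNAs of the labelled cells were measured. Of 10 adipocyte markers 9 were well above background on all 4 arrays, leptin (Lep) being the exception, as were 7 of 7 markers of preadipocytes or fibroblasts. The defining markers of leukocytes (Ptprc, Adgre1), endothelium (Pecam1, Cdh5, Kdr), muscle (Myog) and epithelium (Cdh1, Epcam) did not pass that test on any of the 4 arrays, and Myod1, of muscle, passed it with delphinidin alone. The other markers listed for these cell types, Cd68 and Csf1r of leukocytes, Acta1 of muscle and Krt8 of epithelium, passed it on all 4 arrays, and their part in the results was not tested. Markers of the differentiated state differed between the arrays, and their part in the results on the members was not tested. The summed level of the 10 adipocyte markers was 391 (DMSO), 270 (bilberry), 426 (delphinidin) and 463 (cyanidin), and that of the 7 preadipocyte markers was 835, 951, 797 and 732 in the same order. Without its most abundant gene, Fabp4, the adipocyte sum was 126, 132, 195 and 205, and without Col1a2 the preadipocyte sum was 558, 548, 497 and 458. Of the 9 adipocyte markers well above background the number above DMSO was 5 (bilberry), 6 (delphinidin) and 7 (cyanidin), where 61.5%, 45.2% and 48.6% of all genes well above background were. After spike-in scaling the number was 0, 8 and 8. Of the 7 preadipocyte markers 3, 4 and 0 lay above DMSO in the same order of treatments, against the same shares of all genes, and 0, 5 and 4 after spike-in scaling. Among the markers with the largest ratios, the glucose transporter Slc2a4 had log2 ratios of -1.54, -0.61 and -0.28 with bilberry, delphinidin and cyanidin, and the serine protease Cfd had 0.80, 1.15 and 1.75. The log2 ratios were -1.07, -0.19 and 0.23 for Adipoq (adiponectin), -0.95, -0.19 and -0.036 for Fabp4 (a fatty acid-binding protein) and -1.20, -0.94 and -0.87 for Thy1, a surface protein of fibroblasts, while the collagen gene Col1a2 had 0.54, 0.11 and -0.019. Other adipocyte markers were mostly above DMSO. Lpl had 0.02, 0.73 and 0.78, Cd36 had -0.36, 0.56 and 0.43, and Plin1 had 0.39, 0.06 and 0.65. Pparg had 0.15, 0.31 and 0.31, and Cebpa had 0.50, 0.20 and 0.32.

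In the cyclins and inhibitors, Ccnd1 stood over 2-fold higher than DMSO in all 3 treatments, except that spike-in scaling put its bilberry value at -0.042. Ccne1 and Ccna2 were also higher in all 3 by smaller amounts, again with bilberry values below 0 under spike-in scaling. Ccne2 was over 2-fold higher with delphinidin and within the error of DMSO with cyanidin, and its bilberry values of -0.06 and 0.13 turned to -1.60 and -1.41 under spike-in scaling and to 0.64 and 1.35 under normexp background correction. Of the inhibitors, Cdkn1a lay above DMSO in all 3 treatments, except for -0.97 with bilberry under spike-in scaling. At the probes well above background on all 4 arrays, Cdkn1b and Cdkn2c differed from DMSO by at most 0.54 on the log2 scale. Spike-in scaling moved the bilberry values to between -1.68 and -0.997. For a Cdkn1b probe the normexp background correction gave 1.05 with bilberry, and its refit gave 0.50.

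**Figure D1:**
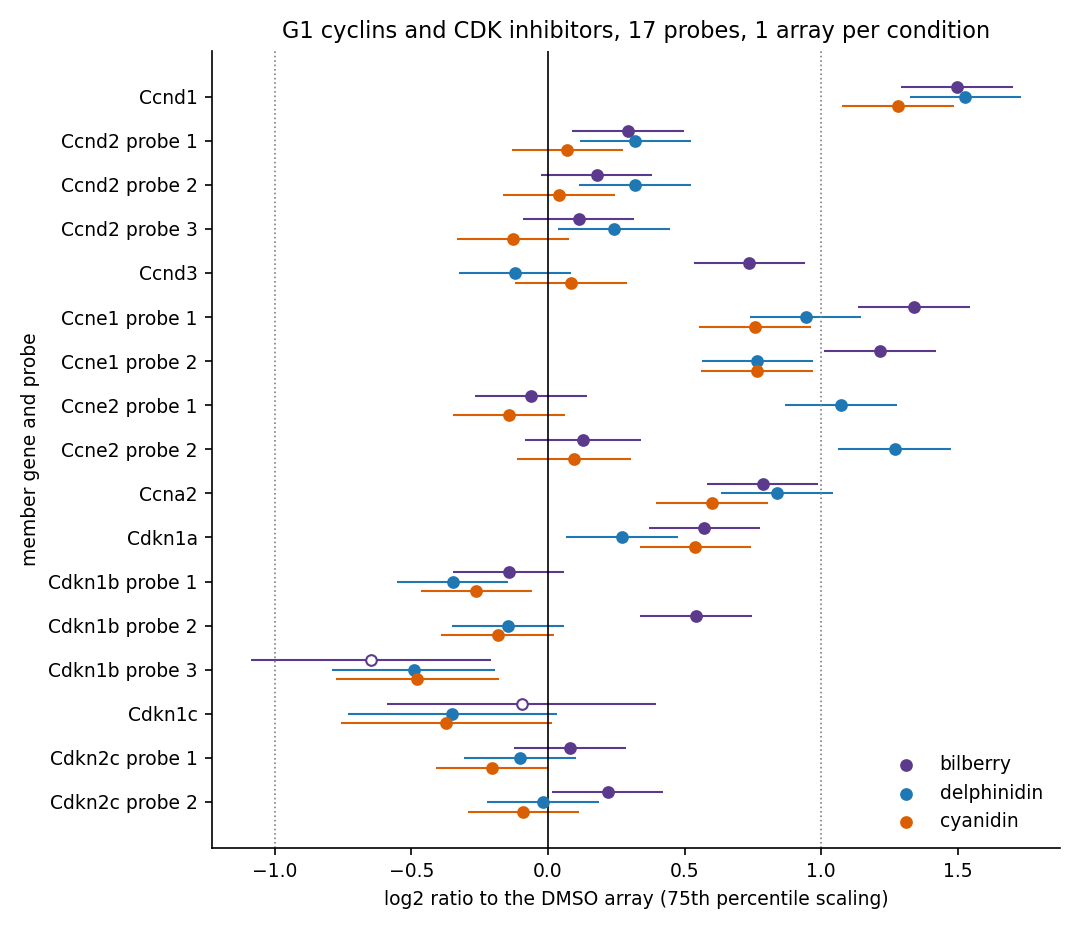
Log2 ratio to the DMSO array (x axis) of each of the 17 member probes (y axis, probes of a gene numbered from the brightest), with 1 array per condition. Points are ratios after 75th percentile scaling, bars are the scanner software's error, open points were not well above background on the bilberry array, and dotted lines mark 2-fold. Ccnd1 lies past 2-fold in all 3 treatments (1.498, 1.53 and 1.28), and spike-in scaling would move all bilberry points by -1.54, those of delphinidin by 0.26 and those of cyanidin by 0.23.

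With bilberry, 2 of the 10 genes (Ccnd1 and Ccne1, each at its brightest probe) were past 2-fold higher, where 7.05% of all 26909 genes with a value on every array and 4.52% of the 14372 genes well above background were. With delphinidin 2 were (Ccnd1 and Ccne2), where 2.89% and 1.14% were. With cyanidin only Ccnd1 was, where 2.45% and 0.578% were. No member was past 2-fold lower with any treatment, where 7.18% of all genes were with bilberry, 4.66% with delphinidin and 5.63% with cyanidin. Past 2-fold higher in all 3 was Ccnd1 alone, where 0.357% of all genes and 0.25% of those well above background were. Under normexp Ccne1 stood at 0.72 with bilberry, under the threshold, and of the 2 members then past it only Ccnd1 was well above background on all 4 arrays. After the refit of normexp Ccnd1 stood at 1.42 and Ccne1 at 1.30 with bilberry, both past it. Spike-in scaling left no member higher with bilberry and put 5 past 2-fold lower. The median of all genes well above background was then itself -1.38, so the 5 do not set the members apart from other genes. The bilberry counts thus depend on the scaling. Normexp as planned also changed which members passed, and its refit did not.

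The median log2 ratio over the 9 members well above background was 0.57 (bilberry), 0.32 (delphinidin) and 0.08 (cyanidin), against medians of 0.16, -0.03 and -0.01 over all such genes. Under normexp the bilberry median of the members, less that of all such genes, fell from 0.41 to -0.032, while the refit of normexp kept it within 0.2 of 0.41. Of these 9, the number above DMSO was 7 (bilberry), 6 (delphinidin) and 6 (cyanidin), where 61.5%, 45.2% and 48.6% of all such genes were. Under spike-in scaling 0, 8 and 8 members lay above DMSO, with the medians of all such genes at -1.38, 0.22 and 0.22. Among the 15 probes that passed the background test everywhere, 8 were above DMSO in all 3 treatments by the 75th percentile, 1 was below it in all 3 (the brightest of Cdkn1b) and 6 had both signs. The share of all probes with 1 sign in all 3 was not counted, and the 3 ratios share the DMSO array. These counts therefore describe the member probes only. Among the 9 members Ccnd1 had the highest ratio in each treatment by the 75th percentile, but cyclins and inhibitors overlapped. Ccne2 stood at -0.06 with bilberry and -0.14 with cyanidin, and Ccnd3 at -0.12 with delphinidin. The inhibitor Cdkn1a stood at 0.57, 0.27 and 0.54 with bilberry, delphinidin and cyanidin.

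**Figure D2:**
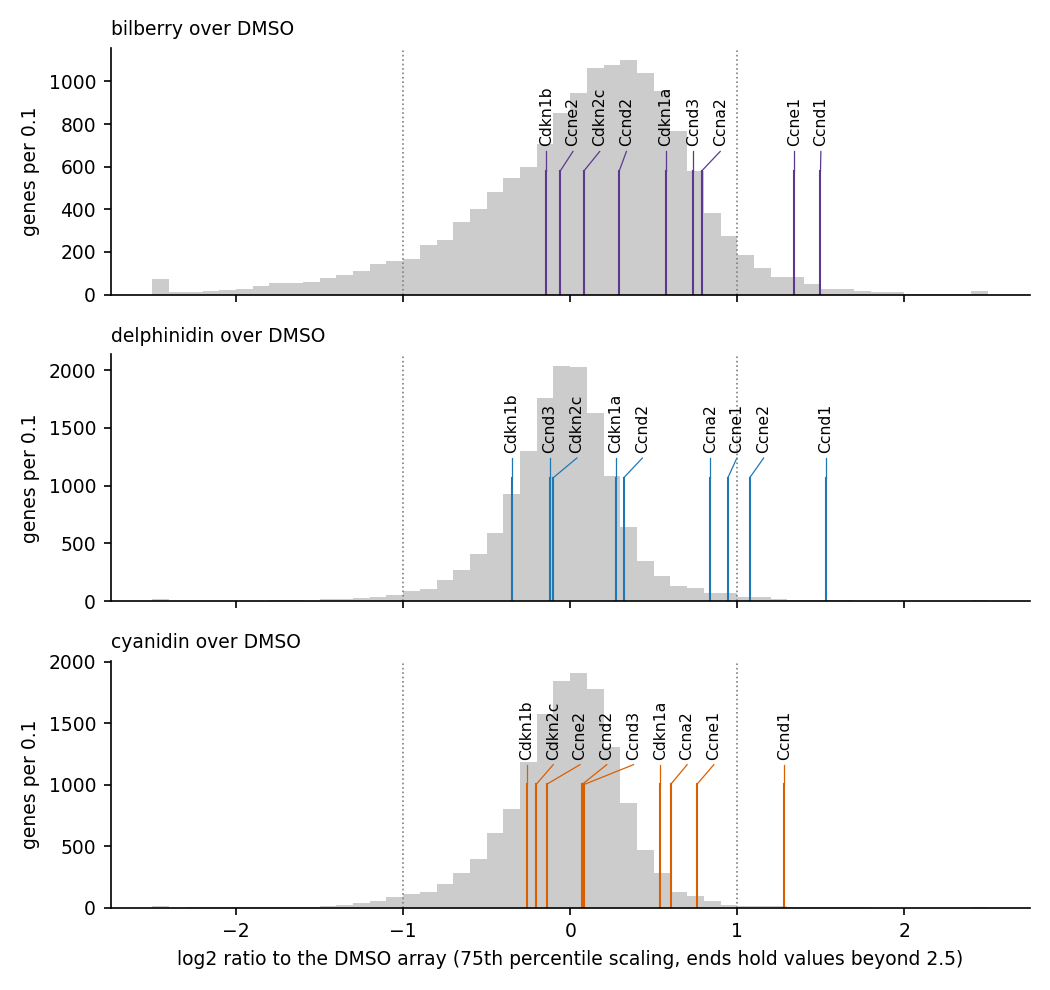
Log2 ratios to the DMSO array (x axis) of the 14372 genes well above background on all 4 arrays, as the number of genes per step of 0.1 (y axis, grey), in 1 panel per treatment, with a coloured line for each of the 9 members in that set at its brightest probe. Ccnd1 is the member farthest to the right in every panel, and the bilberry panel as a whole would lie 1.54 further left under spike-in scaling, with no member above 0.

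RefSeq promoter windows, from 250 bases before to 50 after a start site in GRCm38.p6, were at hand for 5 of the 10 genes (Ccnd3, Ccne1, Cdkn1a, Cdkn1b and Cdkn2c, 8 windows in all), and 3 of them are printed. They belong to a cyclin that was higher in all 3 treatments under 75th percentile scaling (Ccne1) and to a pair of inhibitors whose brightest probes ran from -0.35 to 0.08 (Cdkn1b and Cdkn2c), while spike-in scaling put all bilberry values of these genes below 0. The 4 motifs of cell cycle promoters were searched on both strands, the GC box GGGCGG bound by Sp factors, the E2F forms TTTCGCGC, TTTGGCGC, TTTCCCGC and TTTGCCGC, the CHR element TTTGAA and the CCAAT box CCAAT. Capitals mark the matches, read along the strand of the gene.
Ccne1, chr7:38107441-38107740, minus strand: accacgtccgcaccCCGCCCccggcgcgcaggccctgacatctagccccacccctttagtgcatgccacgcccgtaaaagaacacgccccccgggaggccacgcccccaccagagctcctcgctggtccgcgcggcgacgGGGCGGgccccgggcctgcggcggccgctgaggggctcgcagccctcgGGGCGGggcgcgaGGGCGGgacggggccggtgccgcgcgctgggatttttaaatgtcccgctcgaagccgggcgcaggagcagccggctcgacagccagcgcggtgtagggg
Cdkn1b, chr6:134920151-134920450, plus strand: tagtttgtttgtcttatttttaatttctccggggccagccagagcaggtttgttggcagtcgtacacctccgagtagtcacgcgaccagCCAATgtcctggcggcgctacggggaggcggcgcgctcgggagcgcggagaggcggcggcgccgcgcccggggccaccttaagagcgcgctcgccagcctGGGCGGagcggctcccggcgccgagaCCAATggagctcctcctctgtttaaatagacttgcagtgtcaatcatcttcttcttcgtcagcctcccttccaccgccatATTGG
Cdkn2c, chr4:109666707-109667006, minus strand: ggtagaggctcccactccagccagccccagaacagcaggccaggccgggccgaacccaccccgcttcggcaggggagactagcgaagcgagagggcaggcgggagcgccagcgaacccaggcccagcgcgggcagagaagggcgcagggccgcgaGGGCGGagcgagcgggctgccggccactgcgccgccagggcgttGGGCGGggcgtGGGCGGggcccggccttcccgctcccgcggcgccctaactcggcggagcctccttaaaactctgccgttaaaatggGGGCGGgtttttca
The Ccne1 window held 4 GC boxes, 1 of them on the opposite strand, as did the printed Cdkn2c window with 4 on its own strand, while the other Cdkn2c window (chr4:109665323-109665622) held 0 GC boxes and 1 CCAAT box. The Cdkn1b window held 1 GC box and 3 CCAAT boxes, 1 of them on the opposite strand. Among the windows not printed, those of Ccnd3 held 2 GC boxes each, and 0 and 1 CCAAT boxes. Those of Cdkn1a held 0 and 2 GC boxes and 0 CCAAT boxes. A GC box was found in 35.7% of all 32851 windows, a CCAAT box in 37.4%, the CHR letters in 17.9% and an E2F form in 2.26%. No window of a member held an E2F form or the CHR letters as spelled here. A match describes the letters of a window and not the binding of a factor.

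Ccnd1 encodes cyclin D1, the partner of CDK4 and CDK6 that couples growth factor signals to the cell cycle. Its probe (chr7:144739658-144739717 in mm8) was spotted 10 times on each array, and the mean level was 1.31 (DMSO), 3.70 (bilberry), 3.78 (delphinidin) and 3.19 (cyanidin). The 10 spots ran from 1.24 to 1.37 with DMSO, from 3.61 to 3.89 with bilberry, from 3.61 to 3.92 with delphinidin and from 3.11 to 3.26 with cyanidin. No treated spot reached into the range of the DMSO spots, the bilberry and delphinidin spots overlapped, and the cyanidin spots lay below both. The folds over DMSO were 2.82, 2.88 and 2.43, or 1.498 ± 0.20, 1.53 ± 0.20 and 1.28 ± 0.20 on the log2 scale, and the spots had SDs of 0.05, 0.04, 0.04 and 0.02 on that scale, which cover the position on an array only. Relative to the median of the genes well above background the ratios were 1.33, 1.56 and 1.29. Normexp background correction lowered the bilberry value to 1.03 and its refit gave 1.42, while spike-in scaling gave -0.042, 1.79 and 1.51.

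The genes whose ratios lay nearest to those of Ccnd1, by the Euclidean distance over the 3 log2 ratios among the genes well above background, were Dhrs3 (0.14), Spink8 (0.19), Msln (0.22), Rrm2 (0.24) and Slc16a6 (0.28). Rrm2, the small subunit of ribonucleotide reductase, had ratios of 1.66, 1.51 and 1.11 with bilberry, delphinidin and cyanidin. Dhrs3, a retinaldehyde reductase, had 1.55, 1.47 and 1.17. The likeness rests on 4 arrays.

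**Figure D3:**
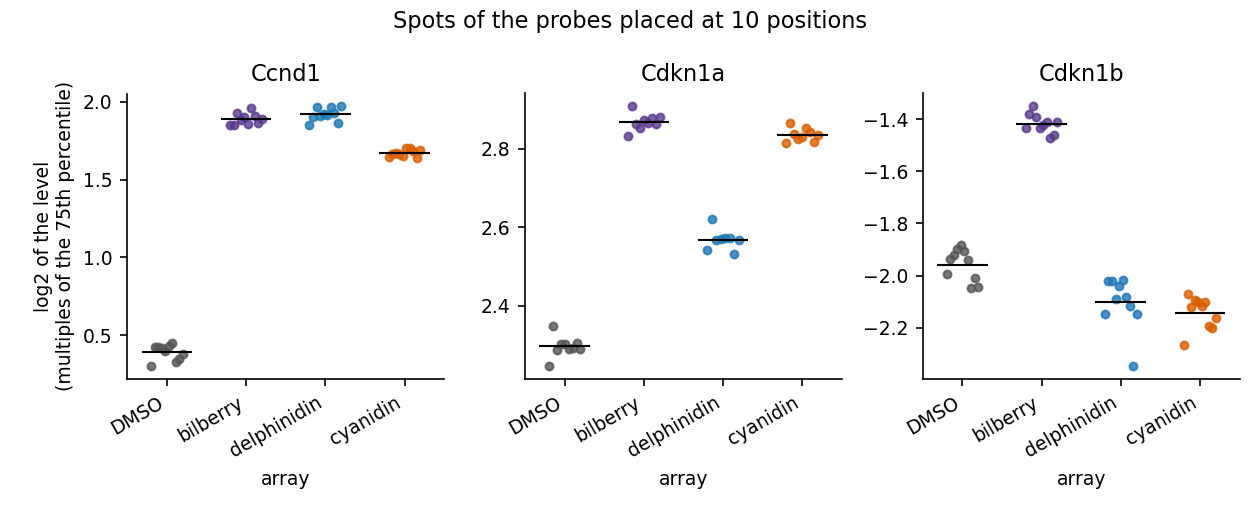
Log2 level in multiples of the 75th percentile (y axis, its own range in each panel) of every used spot of the Ccnd1, Cdkn1a and Cdkn1b probes that were placed at 10 positions, by array (x axis), with the mean as a line. The Ccnd1 and Cdkn1a spots of each treated array lie above all DMSO spots, while for Cdkn1b the delphinidin spots overlap those of DMSO; spike-in scaling would move all bilberry spots by -1.54 against DMSO.

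Ccnd2 and Ccnd3 encode the other D-type cyclins and had smaller ratios than Ccnd1. The brightest Ccnd2 probe (chr6:127104788-127104847) had levels of 24.8 (DMSO), 30.4 (bilberry), 31.0 (delphinidin) and 26.1 (cyanidin). Over its 3 probes the log2 ratio ran from 0.11 to 0.29 with bilberry, from 0.24 to 0.32 with delphinidin and from -0.13 to 0.07 with cyanidin. All 3 probes exceeded the error of 0.20 with delphinidin, 1 did so with bilberry and none with cyanidin. The bilberry sign was not stable, with 0.017, -0.076 and -0.13 under quantile normalization, -0.31, -0.45 and -0.48 under normexp, and -1.25, -1.36 and -1.43 under spike-in scaling. Ccnd3 (chr17:47062509-47062568) had levels of 21.0, 35.1, 19.3 and 22.3 in the same order of arrays. The bilberry array was the highest, at 1.67-fold (0.74 ± 0.20 on the log2 scale, 0.57 relative to the genes well above background and -0.80 with spike-in scaling), and the delphinidin and cyanidin values of -0.12 and 0.08 were within the error. Under normexp the bilberry value of Ccnd3 was 0.11, also within the error and next to the 0.11 of cyanidin, and the refit of that correction without spots of outlying background gave 0.69.

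The D-type cyclins differed among themselves in size. Ccnd1 was past 2-fold in each treatment under 75th percentile scaling, whereas no probe of Ccnd2 or Ccnd3 was past 2-fold higher in any.

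Ccne1 encodes cyclin E1, which with CDK2 drives entry into S phase. Its bright probe had levels of 10.7 (DMSO), 27.1 (bilberry), 20.5 (delphinidin) and 18.1 (cyanidin). All 3 treated arrays were above DMSO, by 2.53-, 1.92- and 1.69-fold, or 1.34 ± 0.20, 0.94 ± 0.20 and 0.76 ± 0.20 on the log2 scale. A dimmer probe listed at the same position (chr7:37806678-37806701) had levels of 0.48, 1.12, 0.82 and 0.82 and log2 ratios of 1.22, 0.77 and 0.77. The pair of probes differed by 0.12, 0.18 and 0.01 in these ratios, which is within the error. Relative to the genes well above background the bright probe stood at 1.18, 0.98 and 0.77, and spike-in scaling put it at -0.20, 1.20 and 0.99 and the dim one at -0.32, 1.03 and 1.00. Normexp lowered the bilberry value of the bright probe to 0.72, and its refit gave 1.30. With delphinidin Ccne1 thus lay just under 2-fold by the 75th percentile and past it by the spike-in controls.

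Ccne2 encodes cyclin E2, a close relative with the same partner, and its pattern over the arrays was another one. The bright probe (chr4:11130171-11130230) had levels of 0.40 (DMSO), 0.39 (bilberry), 0.85 (delphinidin) and 0.37 (cyanidin). A dimmer probe beside it (chr4:11130287-11130346) had levels of 0.13, 0.14, 0.32 and 0.14. Both probes were high on the delphinidin array alone, at 2.11-fold and 2.41-fold over DMSO (1.07 ± 0.20 and 1.27 ± 0.21 on the log2 scale). The bilberry values of -0.06 and 0.13 and the cyanidin values of -0.14 and 0.10 were within the error, and spike-in scaling moved the bilberry values to -1.60 and -1.41. The normexp background correction gave 0.64 and 1.35 with bilberry, and its refit gave 0.075 and 0.25, so the bilberry values of these dim probes depend on the background that is subtracted. With delphinidin the bright probe stayed past 2-fold under both (1.02), and the dim probe had 0.90 under normexp and 0.91 under its refit, below 2-fold.

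Ccna2 encodes cyclin A2, which acts with CDK2 in S phase and is a target of E2F factors. Its probe (chr3:36756605-36756664) had levels of 4.77 (DMSO), 8.23 (bilberry), 8.53 (delphinidin) and 7.24 (cyanidin). The treated arrays were 1.72-, 1.79- and 1.52-fold above DMSO (0.79, 0.84 and 0.60 on the log2 scale, each ± 0.20). Relative to the genes well above background the ratios were 0.62, 0.87 and 0.61, and spike-in scaling gave -0.75, 1.10 and 0.83. Normexp gave 0.23 with bilberry, and its refit gave 0.73. No treatment reached 2-fold by the 75th percentile.

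Cdkn1a encodes p21, an inhibitor of CDK2 complexes that p53 and other factors induce. Its probe (chr17:28828096-28828155) was spotted 10 times, of which 8 or 9 spots an array were free of marks, and the mean level was 4.91 (DMSO), 7.31 (bilberry), 5.93 (delphinidin) and 7.14 (cyanidin). The spots ran from 4.75 to 5.09 with DMSO, from 7.13 to 7.51 with bilberry, from 5.78 to 6.16 with delphinidin and from 7.04 to 7.29 with cyanidin. Every treated spot lay above the DMSO spots, the delphinidin array was between the others without overlap, and bilberry and cyanidin overlapped. The folds were 1.49, 1.21 and 1.45, or 0.57, 0.27 and 0.54 on the log2 scale. The bilberry value was -0.97 under spike-in scaling and 0.016 under normexp, below that of delphinidin in both (0.53 and 0.28). The refit of normexp gave 0.51 with bilberry and 0.28 with delphinidin, so bilberry again lay above delphinidin.

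Of 21 listed targets of p53, 20 were well above background, of which 16 (bilberry), 15 (delphinidin) and 16 (cyanidin) lay above DMSO by the 75th percentile, against 61.5%, 45.2% and 48.6% of all such genes, with a median log2 ratio of 0.43 (bilberry), 0.23 (delphinidin) and 0.16 (cyanidin). Past 2-fold higher with bilberry was Sesn2 (1.18), or 5.0% of the 20, near the 4.52% of all genes well above background. Past 2-fold lower was Fas (-1.22), where 7.18% of all genes with a value were. The share lower was not counted among genes well above background alone. None was past 2-fold with delphinidin or cyanidin, where 1.14% and 0.578% of all genes well above background were higher and 4.66% and 5.63% of all genes with a value were lower. Spike-in scaling put the bilberry median at -1.11 and left 0, 19 and 19 of the 20 above DMSO. The medians of all genes well above background were then -1.38, 0.22 and 0.22. Normexp took the bilberry median less that of all genes well above background from 0.27 to -0.062. The refit of normexp kept that value within 0.2 of 0.27.

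Cdkn1b encodes p27, which holds resting cells in G1. Its 3 probes gave unlike answers with bilberry. The brightest (chr6:134890890-134890949), the one at the highest coordinate of this plus-strand gene, had levels of 1.03 (DMSO), 0.93 (bilberry), 0.81 (delphinidin) and 0.86 (cyanidin), and log2 ratios of -0.14, -0.35 and -0.26. The probe with 10 spots (chr6:134886778-134886836), the one at the lowest coordinate, had mean levels of 0.26, 0.37, 0.23 and 0.23 and ratios of 0.54, -0.14 and -0.18. All bilberry spots of that probe (0.36 to 0.39) lay above the DMSO spots (0.24 to 0.27), the delphinidin spots (0.20 to 0.25) overlapped them, and the cyanidin spots (0.21 to 0.24) lay just below. The third probe (chr6:134889281-134889340) was not well above background with bilberry, where DMSO was at least 1.26-fold higher by the 75th percentile. That direction is not firm, since the measured bilberry ratio had an error of 0.44 and turned to 2.18 under normexp and 0.32 under its refit. The same probe had -0.49 ± 0.30 and -0.48 ± 0.30 with delphinidin and cyanidin.

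With delphinidin and cyanidin all 3 Cdkn1b probes were thus below DMSO by the 75th percentile, by 0.14 to 0.49 on the log2 scale. Spike-in scaling turned the probe with 10 spots to 0.11 and 0.05 and left the others below 0. With bilberry the 2 probes well above background had 0.54 and -0.14, or 1.05 and -0.010 under normexp and 0.50 and -0.080 under its refit. Which transcripts each probe reads was not tested.

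Cdkn1c, which encodes p57, was near background. Its probe (chr7:143268238-143268297) had levels of 0.019 (DMSO), 0.018 (bilberry), 0.015 (delphinidin) and 0.015 (cyanidin), and it was not well above background with bilberry. The ratios of -0.35 ± 0.38 with delphinidin and -0.37 ± 0.39 with cyanidin were within the error, so no difference was detectable at this signal. Cdkn2c, which encodes p18, had a pair of bright probes that overlap on the genome (chr4:109159106-109159165 and chr4:109159084-109159145). The first had levels of 13.6, 14.4, 12.7 and 11.8 with DMSO, bilberry, delphinidin and cyanidin, and the second had 11.4, 13.2, 11.2 and 10.7. The 2 ratios were 0.08 and 0.22 with bilberry, -0.10 and -0.02 with delphinidin and -0.20 and -0.09 with cyanidin, and the bilberry value of the second probe alone exceeded the error by the 75th percentile. That value was not stable, since the bilberry ratios were -0.14 and -0.0037 under quantile normalization and -0.50 and -0.31 under normexp. The refit of normexp gave 0.04 and 0.22. Spike-in scaling moved the bilberry values to -1.46 and -1.32 and the others to between 0.03 and 0.24.

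**Figure D4:**
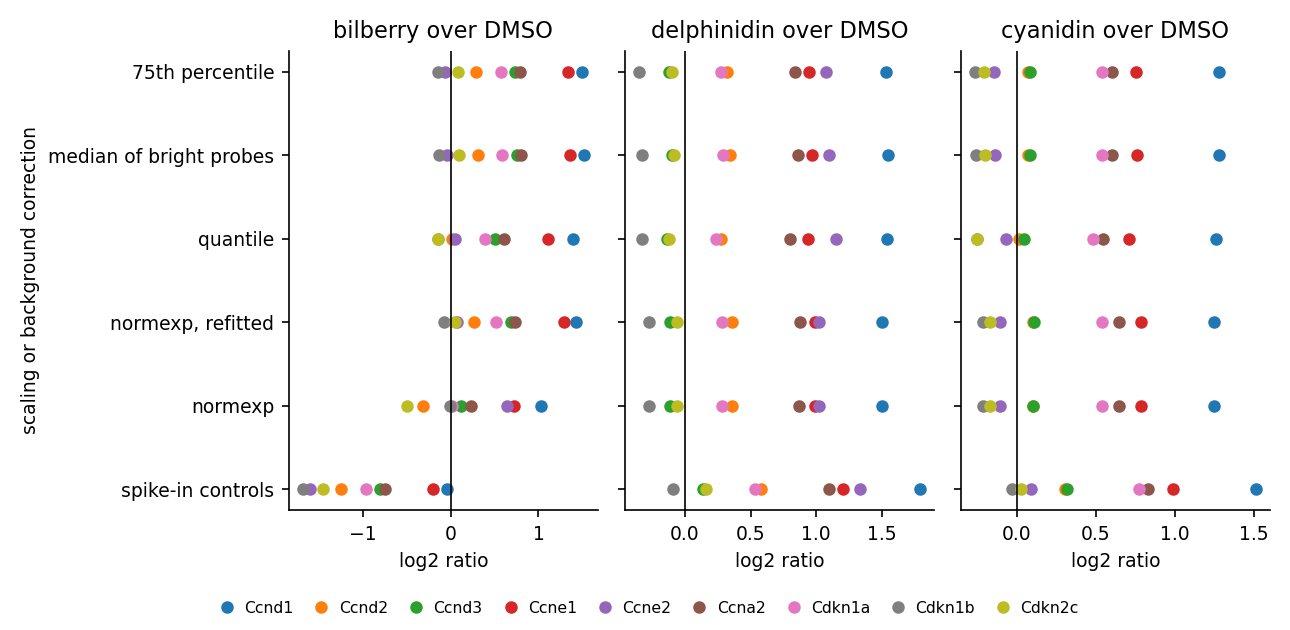
Log2 ratio to the DMSO array (x axis) of the 9 members well above background on all 4 arrays, each at its brightest probe, under 6 scalings or background corrections (y axis), in 1 panel per treatment. The order of Ccnd1 above Ccne1 with bilberry holds in each line, whereas the spike-in controls place all 9 members at or below -0.042 with bilberry and Ccnd1 at 1.79 and 1.51 with delphinidin and cyanidin.

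Delphinidin and cyanidin were given at the same dose for the same time and differ in structure by a single hydroxyl group on the B ring, which delphinidin has in addition. All 17 probes were compared between these arrays, with no test since each had 1 array. Ccne2 differed most: delphinidin was 2.32-fold above cyanidin at its bright probe (1.22 ± 0.20 on the log2 scale) and 2.26-fold at its dim one (1.17 ± 0.21), where normexp and its refit gave 0.90, under 2-fold. Past 2-fold with delphinidin over cyanidin, Ccne2 was the only member, where 3.96% of all genes and 0.508% of those well above background were. At the 15 other probes the log2 ratio of delphinidin to cyanidin lay between -0.27 (Cdkn1a) and 0.37 (a Ccnd2 probe). In all, 7 probes were higher with delphinidin by more than the error, 2 were lower (Ccnd3 and Cdkn1a) and 8 were within it. The share of all probes past the error was not counted, so these counts describe the member probes only. By sign alone, 6 of the 9 members well above background were higher with delphinidin, where 45.5% of all such genes were. The Ccnd3 value of -0.20 lay at the edge of its error and within it under 4 of 9 alternatives. Ccnd1 stood at 0.25 ± 0.20, with spots that did not overlap, and Ccne1 at 0.19 ± 0.20 and 0.00 ± 0.20. The Ccne1 values were thus within the software's error, which is not a limit of detection. This comparison does not use the DMSO array, and spike-in scaling changed it by 0.027.

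**Figure D5:**
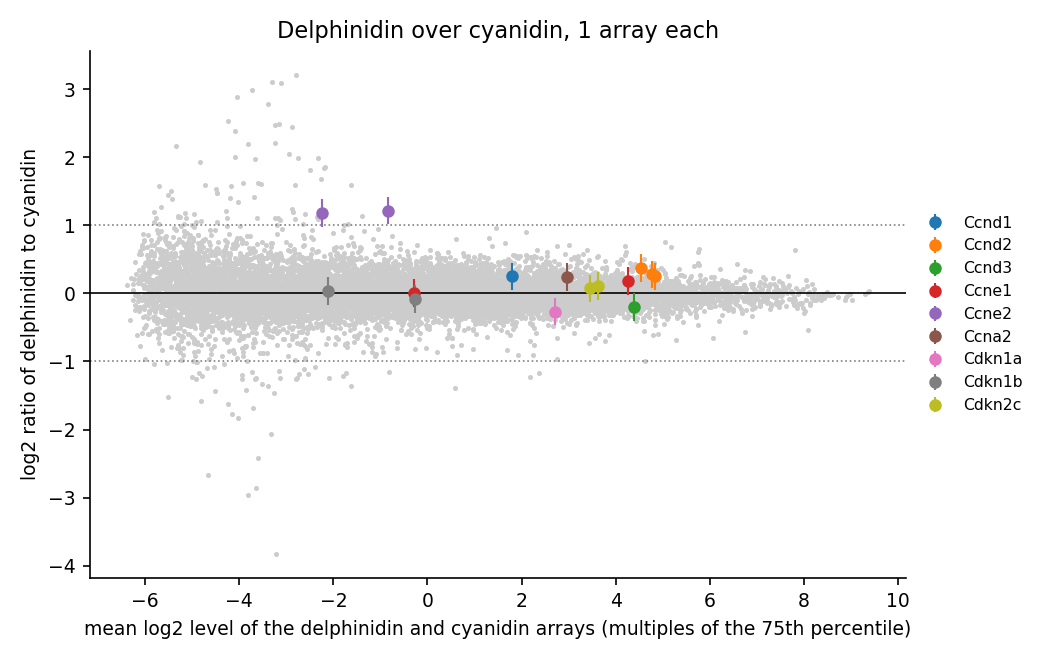
Log2 ratio of the delphinidin to the cyanidin array (y axis) against the mean log2 level of the 2 arrays (x axis, multiples of the 75th percentile) for the 14372 genes well above background (grey) and the 15 member probes in that state (coloured by gene), with the software's error as bars and dotted lines at 2-fold. Both Ccne2 probes lie above the upper dotted line at 1.22 and 1.17, and the other member probes lie between -0.27 and 0.37.

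The partners and regulators of these genes were taken from a list of 41 genes of the G1 pathway, of which 38 had a value and all 38 were well above background. The kinase Cdk4 had log2 ratios of 0.82, 0.27 and 0.44 with bilberry, delphinidin and cyanidin, and Cdk6 had 0.32, 0.11 and 0.13. Cdk2, the partner of cyclins E and A, had -0.11, 0.55 and 0.08, and Rb1, the retinoblastoma gene, had -0.17, -0.044 and -0.0013. None was past 2-fold lower, where 7.18%, 4.66% and 5.63% of all genes with a value were. Past 2-fold higher were 5 genes with bilberry, 2 with delphinidin and 0 with cyanidin, where 4.52%, 1.14% and 0.578% of all genes well above background were. The normexp refit left 2 with bilberry, and normexp and its refit left 1 with delphinidin. The 5 were E2f1 (1.24), the repressor forms E2f7 (1.30) and E2f8 (1.28), the phosphatase Cdc25a (1.16), which activates CDK2, and the transcription factor Foxo3 (1.30). Their DMSO levels in the same order were 1.38, 0.27, 0.094, 0.23 and 0.040, where the lowest level well above background was 0.015. For the refit only the number was kept, so which 2 of the genes remained is not given. E2f7 and E2f8 were also the 2 with delphinidin (1.19 and 1.46), and with cyanidin E2f8 stood at 1.00, just under the threshold. The medians of the 38 were 0.19, 0.12 and 0.07, and spike-in scaling put none of them above 0 with bilberry and 28 past 2-fold lower. Their bilberry median was then -1.35, near the -1.38 of all genes well above background, so the 28 do not set the list apart.

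The genes of DNA synthesis that E2F factors drive were taken from another list. Of 28 listed genes 27 had a value and were well above background. By the 75th percentile 27 of 27 lay above DMSO in each treatment, where 61.5%, 45.2% and 48.6% of all such genes did. Spike-in scaling left 2 above it with bilberry and 27 with each anthocyanidin, with the medians of all such genes at -1.38, 0.22 and 0.22. Past 2-fold higher were 15 (bilberry), 16 (delphinidin) and 1 (cyanidin), against 4.52%, 1.14% and 0.578% of all genes well above background, and the medians were 1.09, 1.04 and 0.64. Normexp lowered the bilberry median less that of all genes well above background from 0.92 to 0.43, while its refit kept it within 0.2 of 0.92. Examples are the helicase subunits Mcm5 (1.70, 1.31 and 0.91) and Mcm2 (1.38, 0.99 and 0.76), the licensing factor Cdc6 (1.37, 1.21 and 0.86) and Rrm2, given above. All 27 were higher with delphinidin than with cyanidin, by a median of 0.35 on the log2 scale, whereas 19 of the 38 G1 pathway genes and 45.5% of all genes well above background were. Of 6 genes of G2 and M phase 4 were well above background, with medians of 0.78, 0.74 and 0.61, and Cdk1, the mitotic kinase, stood at 1.04, 0.91 and 0.76. Ccnf was at 0.93, 0.76 and 0.64 and Ccnb1 at 0.63, 0.72 and 0.58, and Ccnb2 had -0.17, 0.18 and 0.02. With spike-in scaling the bilberry median of these 4 was -0.76, and normexp took it, less that of all genes well above background, from 0.61 to 0.24. The refit of normexp kept that value within 0.2 of 0.61.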

How the data were processed

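Total RNA of 3T3-L1 cells was labeled with 1 dye by the authors, who hybridized it to Agilent Whole Mouse Genome arrays and deposited the Feature Extraction 9.5 output of each array. The deposited processed signal is an intensity, already cleared of background and spatial trends by that software. It is not divided by the 75th percentile, the scaling the study's methods name. That scaling was applied here over the 43379 non-control spots. Outlier spots, by the software's marks, were left out (701 to 875 an array), and spots of a probe were averaged on the log2 scale. The median SD of replicate spots over 245 probes spotted 10 times was 0.053 to 0.063 on that scale. A gene is its probe with the highest mean signal. For a probe near background, the bright array was set against the higher of the dim signal and the lowest signal well above background.

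With 1 array per condition no test was made, and past 2-fold is a description. Members and gene lists were chosen with earlier results of these data known. Named genes are all members, G1 pathway genes past 2-fold with Cdk2, Cdk4, Cdk6 and Rb1, at most 4 genes with the largest ratios of each other list, and the 5 genes nearest to a member past 2-fold in all 3 treatments. Probe coordinates, on mm8, came from the array files. Promoters came from RefSeq. The alternatives were quantile normalization, scaling to probes well above background, a percentile with control spots, spike-in scaling, normexp with an offset of 50 and its refit without spots of outlying background, the deposited table of the series, marked spots kept, a floor, thresholds of 1.5 and 3, filters on dim probes and other rules for genes with several probes. Leaving out a band of rows of the array was added after seeing the data. The calculation was tested on simulated data. Python 3.11.15, numpy 2.4.6, pandas 2.3.3, matplotlib 3.10.9, R 4.3.3 and limma 3.58.1 were used.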

Additional observations from a re-analysis of the deposited data

How the results depend on the processing

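Of 375 alternative values of the counts and list medians, 337 stayed within 1.5 times a count or 0.2 of a median. Part of the 337 was fixed in advance. The list medians, taken less that of all genes well above background, cannot move under a constant rescaling such as that to the spike-in controls. The deposited table holds the same signals. The 337 therefore do not measure how stable the results are. Spike-in scaling gave 0 members and 0 G1 pathway genes past 2-fold higher with bilberry, 5 and 28 lower, 4 members higher with delphinidin, 1 G1 pathway gene higher with cyanidin and 0 members higher in all 3. With bilberry this scaling put the median of all genes well above background at -1.38. It also reversed the bilberry ratio of Ccnd1 to -0.042 and those of Ccne1 to -0.20 and -0.32. At 1.5-fold the members past the threshold numbered 4, 4 and 3 with bilberry, delphinidin and cyanidin and 3 in all 3, and the G1 pathway genes 10, 5 and 2 higher and 2 lower with bilberry. The share of all genes past 1.5-fold was not counted, so these counts describe the members and the list only. At 3-fold each of these counts was 0. For the G1 pathway, normexp and its refit gave 1 gene higher with delphinidin and the refit 2 with bilberry. With cyanidin 1 gene was higher under quantile normalization, probes well above background, control spots in the percentile and marked spots kept. Averaging a gene's probes gave 1 gene lower with bilberry, and any probe gave 2 with bilberry and 1 with cyanidin. Normexp moved the bilberry medians, less that of all genes well above background, to -0.032 for the members, 0.24 for the G2 and M genes, 0.43 for DNA synthesis and -0.062 for p53 targets. Its refit kept each of these within 0.2 of the reported median. On the same scale normexp moved the delphinidin median of the imprinted list from 1.12 to 0.46, as did the refit (0.46) and averaging the probes (0.47). In the planned normexp the bilberry median of all genes with a value shifted by 1.62, against 0.02 after the refit. Leaving out a band of rows, added after seeing the data, kept the ratios of the 14 member probes that still had a value within the error of the reported ones, with Ccnd1 at 1.51, 1.54 and 1.29, and 3 probes, that of Ccnd3 among them, had no value. Signal over background limits Cdkn1c and the dimmest Cdkn1b probe. The labels give no replicates, so no array could be left out.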

Other observations

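A list of 13 genes of the imprinted network, which includes growth regulators of the fetus, had 9 genes well above background on all 4 arrays. With delphinidin 5 of these 9 were past 2-fold higher, against 1.14% of all genes well above background, with 1.45 for Igf2 (an insulin-like growth factor), 1.29 for H19 (a non-coding RNA), 1.21 for Mest, 1.10 for Plagl1 and 1.09 for the transporter gene Slc22a18. With bilberry and cyanidin 1 of 9 was, Slc22a18 at 1.40 and 1.22, where 4.52% and 0.578% of all genes well above background were. Spike-in scaling gave 0, 5 and 2 past 2-fold higher with bilberry, delphinidin and cyanidin. Igf2 had -0.15 with bilberry and 0.65 with cyanidin, and H19 had 0.23 and 0.86. The median of the 9 was 0.23 (bilberry), 1.09 (delphinidin) and 0.27 (cyanidin), which spike-in scaling moved to -1.31, 1.35 and 0.50. Less the median of all genes well above background, the delphinidin value was 1.12, and it was 0.46 under normexp and its refit and 0.47 with the probes of a gene averaged. The number past 2-fold was not counted under these settings. Slc22a18 was dim, with a DMSO level of 0.034, where the lowest level well above background was 0.015. Like the other lists, this one was chosen with earlier results of these data known. Plagl1 is named as 1 of 5 past the threshold, after its values were seen.

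A few markers of other cell types were well above background at low levels. The keratin Krt8 had levels of 0.026 (DMSO), 0.057 (bilberry), 0.089 (delphinidin) and 0.053 (cyanidin), or log2 ratios of 1.17, 1.80 and 1.06. Csf1r had 1.16, 0.26 and 0.53, Cd68 had -0.09, 0.19 and 0.38, and Acta1 had 0.03, 0.37 and 0.30. The bilberry values of Krt8 and Csf1r fall below 0 with spike-in scaling.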
